A study of Mus musculus with 4 samples.

Results

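The regions described here are 932 promoter regions that carried acetylated histone H3 lysine 27 (H3K27ac) in the list of sham-operated mouse liver and shared no base with any region of the list of liver taken 12 h after 70% partial hepatectomy (PHx12h). They were selected on measured values, namely presence in the sham list, absence from the PHx12h list, and an annotation by the authors within 3 kb of a transcription start site. They make up 11.9% of the 7864 sham promoter regions (95% Clopper-Pearson interval 11.1 to 12.6%, counting error only). Of all 11602 sham regions, 1627 (14%) shared no base with the PHx12h list. In the other direction, 1345 of 7665 PHx12h promoter regions (17.5%) shared no base with the sham list. All shares of the selected regions below are descriptions of the lists and carry no test.

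Each group had 2 CUT&Tag libraries, an assay in which an antibody guides a transposase to cut the DNA around the mark. The PHx12h group was wild-type C57/BL6J liver after removal of 70% of the organ, collected at 12 h. The sham group was wild-type C57/BL6J liver after a sham operation, for which the sample labels give no time and the series' design text gives 0 h. The operation and the time of collection therefore cannot be told apart. Only 1 merged and annotated list per group was analysed, on build GRCm39, with no signal values, so the depth behind a region is unknown and there is no replicate error. Regions of 1 merged list are not replicates, and the labels do not say whether the 2 libraries of a group came from separate animals.

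H3K27ac is placed on nucleosomes around active start sites and enhancers by the acetyltransferases p300 and CBP and is removed by histone deacetylases. In liver it marks the promoters of housekeeping genes as well as those of hepatocyte, endothelial, Kupffer and stellate cells. After partial hepatectomy the remaining hepatocytes leave quiescence and pass through a priming phase towards DNA synthesis. In bulk liver, fewer cells of a type that carry the mark and less of the mark per cell cannot be told apart. Of the listed liver cell markers, endothelial genes had a promoter region for 7 of 12 in the PHx12h list and 4 of 12 in the sham list, and hepatocyte genes for 5 of 9 in both lists. Of these endothelial and hepatocyte markers, the 932 regions held Nos3, the endothelial nitric oxide synthase, with a region of 7387 bp.

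Start sequences are given for genes of the widest regions and for both ends of the CpG range, to show what kinds of start these genes have. The sequences are the RefSeq starts of build GRCm38.p6, from 250 bases before to 50 bases after the start, on the strand of the gene, with CpG dinucleotides in capitals. Only genes with 1 start in that table and 1 promoter region in both lists together were printed, and their coordinates are not those of the GRCm39 regions. Gli2, a transcription factor of Hedgehog signalling, starts at chr1:119053570-119053869 on the minus strand. Adgrl1, an adhesion G protein-coupled receptor, starts at chr8:83899848-83900147 on the plus strand. Mybpc3, a myosin-binding protein of heart sarcomeres, starts at chr2:91117894-91118193 on the plus strand. Traf3, an adaptor of TNF and Toll-like receptors, had the highest ratio and starts at chr12:111166120-111166419 on the plus strand. Gata5os, a transcript opposite to Gata5, was the widest of 6 genes with no CpG and starts at chr2:180332607-180332906 on the plus strand.
Gli2: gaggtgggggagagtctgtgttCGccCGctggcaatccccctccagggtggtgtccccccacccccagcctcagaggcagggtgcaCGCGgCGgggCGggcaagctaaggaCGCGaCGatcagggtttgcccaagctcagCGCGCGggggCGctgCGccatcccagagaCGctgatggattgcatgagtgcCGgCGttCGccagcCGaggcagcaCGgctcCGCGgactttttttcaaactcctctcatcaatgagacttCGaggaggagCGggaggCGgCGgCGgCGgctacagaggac
Adgrl1: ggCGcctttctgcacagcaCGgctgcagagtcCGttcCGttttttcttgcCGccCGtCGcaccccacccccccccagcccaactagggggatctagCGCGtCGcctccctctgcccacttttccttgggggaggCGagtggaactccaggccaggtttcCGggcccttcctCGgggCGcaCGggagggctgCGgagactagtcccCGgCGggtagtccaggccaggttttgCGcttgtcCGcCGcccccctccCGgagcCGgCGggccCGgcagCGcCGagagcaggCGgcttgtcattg
Mybpc3: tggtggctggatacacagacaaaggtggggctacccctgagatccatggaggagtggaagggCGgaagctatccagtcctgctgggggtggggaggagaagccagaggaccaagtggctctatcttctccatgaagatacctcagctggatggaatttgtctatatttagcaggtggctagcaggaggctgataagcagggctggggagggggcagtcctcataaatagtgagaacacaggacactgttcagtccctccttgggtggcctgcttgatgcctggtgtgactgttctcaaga
Traf3: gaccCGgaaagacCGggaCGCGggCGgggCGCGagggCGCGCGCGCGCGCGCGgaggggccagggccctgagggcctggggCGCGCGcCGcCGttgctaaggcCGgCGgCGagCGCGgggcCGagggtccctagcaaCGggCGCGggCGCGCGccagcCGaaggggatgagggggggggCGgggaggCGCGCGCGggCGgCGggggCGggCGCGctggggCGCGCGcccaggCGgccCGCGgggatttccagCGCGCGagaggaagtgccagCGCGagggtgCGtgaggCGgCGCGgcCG
Gata5os: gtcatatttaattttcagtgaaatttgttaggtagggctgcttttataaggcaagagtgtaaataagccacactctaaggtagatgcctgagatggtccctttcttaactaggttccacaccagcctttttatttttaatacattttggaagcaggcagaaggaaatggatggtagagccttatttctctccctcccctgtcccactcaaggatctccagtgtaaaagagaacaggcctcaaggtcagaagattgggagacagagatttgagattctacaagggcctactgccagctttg

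The observed over expected CpG ratio of these starts was 0.83 for Gli2, 0.77 for Adgrl1 and 0.05 for Mybpc3. It was 1.20 for Traf3, with 59 CpG in 300 bases, and 0 for Gata5os and 5 others. The genes of wide sham-only regions thus had CpG-dense starts as well as a start with a single CpG. Whether the regions cover these starts was not checked.

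The widest of the 932 regions, 26588 bp at chr11:87634397-87660984, was assigned to Mir142, a microRNA gene of blood cells. The mature sequences of Mir142 and of Mir28a, whose region was 7222 bp wide, are given with the seed, bases 2 to 8, in capitals (RefSeq, build GRCm38.p6). Mir142 is on the plus strand, with the 5p arm at chr11:87756867-87756887 and the 3p arm at chr11:87756903-87756925. Mir28a is on the plus strand, with the 5p arm at chr16:24827868-24827889 and the 3p arm at chr16:24827908-24827929.
mmu-miR-142a-5p: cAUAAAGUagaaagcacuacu
mmu-miR-142a-3p: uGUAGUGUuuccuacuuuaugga
mmu-miR-28a-5p: aAGGAGCUcacagucuauugag
mmu-miR-28a-3p: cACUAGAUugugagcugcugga
By symbol, 9 microRNA genes of the sham-only regions matched the RefSeq table, with 19 mature sequences that carried 19 different seeds. Their regions were 3525 bp wide at Mir6392, at the low end, and 26588 bp wide at Mir142.

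The sham-only promoter regions were narrow. Their median width was 5716 bp (quartiles 4550 and 7445 bp), against 9046 bp (quartiles 6309 and 14242 bp) for the 6932 other sham promoter regions, a ratio of 0.632. Of the sham-only regions 88.6% were under 10 kb wide, against 56.2% of the others. Together they covered 5.97 Mb, against 81.8 Mb for the other sham promoter regions. In 5 width classes of near equal size, the share of sham-only regions was 26.7% up to 5512 bp, 17.2% up to 7320 bp, 8.53% up to 9985 bp, 6.10% up to 15052 bp and 0.699% among wider regions. A narrow region has fewer bases to share with another list, and the part of this in the selection was not tested. PHx12h-only promoter regions were also narrower than the other promoter regions of their list, with medians of 12026 bp and 16744 bp, a ratio of 0.718.

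**Figure D1:**
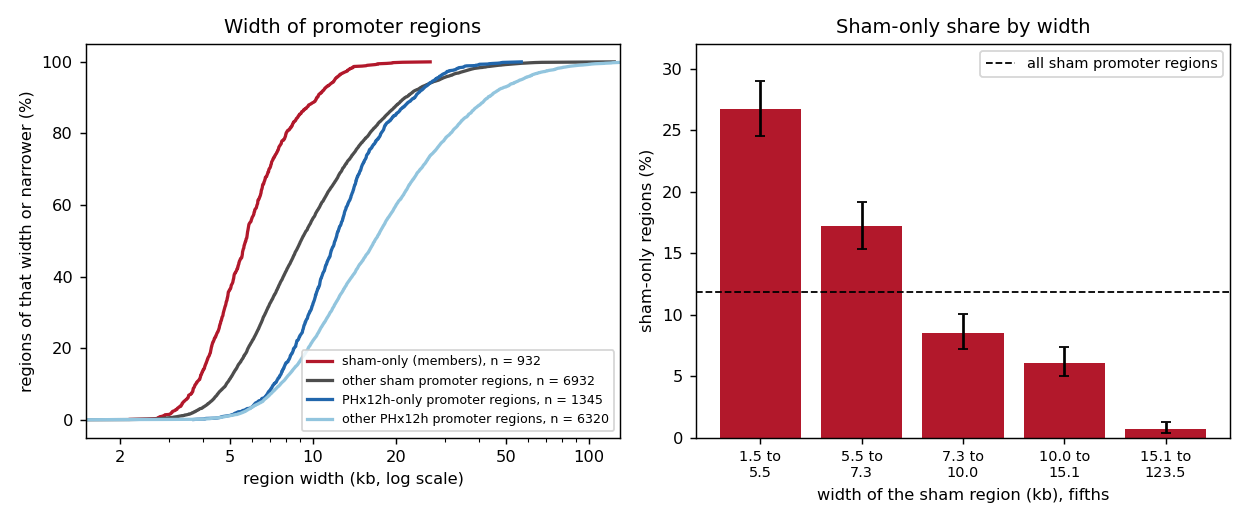
Left, cumulative share of promoter regions (y axis, percent) by region width (x axis, kb, log scale) for sham-only, other sham, PHx12h-only and other PHx12h promoter regions. Right, percent of sham promoter regions that are sham-only in each of 5 width classes, with 95% exact intervals that cover counting error only; the dashed line is the share over all 7864. The sham-only curve lies left of the other 3, and the bars fall class by class, 26.7% in the narrowest and 0.699% in the widest.

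At the narrow end stood Eef1e1, whose protein binds multi-tRNA synthetase complexes, at 2178 bp. The next were Scaf8, an RNA polymerase II tail-binding factor, at 2511 bp, Gm15564 at 2693 bp, 9930021J03Rik at 2746 bp and Fam216a at 2747 bp. At the wide end, after Mir142, stood Rgs12, a regulator of G protein signalling, at 21131 bp. Sgms2, a sphingomyelin synthase of the plasma membrane, had 19437 bp. Duxbl1, a double homeobox gene, had 19360 bp, and Prkag2, a regulatory subunit of AMP-activated protein kinase, had 18482 bp. The wide set was mixed in function. It held Cacna1g, a T-type calcium channel, at 17174 bp, Gli2 at 17146 bp and Acot7, an acyl-CoA thioesterase, at 16833 bp. Adgrl1 had 16353 bp, Mybpc3 15711 bp and Cilp2, a cartilage matrix gene, 15575 bp. The remaining 4 of the 15 widest were Gm51916 (15052 bp), the matrix proteoglycan gene Podn (14067 bp), the organic anion exporter gene Abcc4 (14046 bp) and Gm33914 (13935 bp).

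The sham-only regions were compared with the other sham promoter regions in where the start site lay and which genes were assigned. The listed start site was inside the region for 89.6% of the sham-only regions, against 93.7% of the other sham promoter regions. It stood at a median of 40.7% and 41.0% of the region length from the upstream end. Regions annotated within 1 kb of a start made up 93.3% and 95.6%. A single peak from each library formed 97.3% of the sham-only regions and 82.4% of the others. Protein-coding genes were assigned to 76.9% (717 regions), against 73.6% of the others, and long non-coding RNA genes to 16.6% and 20.4%. The 932 regions carried 922 gene names. Trp73, a relative of the tumour suppressor p53, had 3 sham-only regions, of 8828, 6448 and 6288 bp, which followed each other on chromosome 4. Another 8 genes had 2 regions each, among them Fancc, Foxp1, Crhr2, Piezo1 and Prlr.

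Neighbouring sham-only promoter regions formed 84 runs of 2 and 14 runs of 3. Neighbours were not always close, since the runs spanned 13234 bp (Bin3) to 2918790 bp (Tnfrsf8 and Fv1). How many runs the same number of scattered regions would give was not tested. The tightest run of 3 lay at chr5:138150165-138194682 over Zfp113, a zinc finger gene, Cnpy4, a Canopy protein gene, and Mblac1. The next lay at chr2:24822438-24869165 over Arrdc1, an arrestin-domain gene, Dph7, of diphthamide synthesis, and Mrpl41, of the mitochondrial ribosome.

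Genes were grouped by family from their symbols and the lists chosen with earlier results known, and each count is given beside the 11.9% of all sham promoter regions. Since narrow regions are more often sham-only, the share is also given among regions narrower than the sham median of 8489 bp, where 774 of 3932 (19.7%) were sham-only. The mitochondrial ribosome, import and translation factors had the highest share of the families with at least 15 regions. Of their 28 sham promoter regions 11 were sham-only, 39.3% (interval 21.5 to 59.4%), and 9 of 20 among narrow regions. Mrpl28, of the large mitochondrial ribosomal subunit, had 12049 bp and Mrps12, of the small subunit, 11023 bp. The other ribosomal proteins were Mrpl48 (7452 bp), Mrps25 (7031 bp), Mrpl46 (5977 bp), Mrpl41 (5843 bp), Mrps23 (3698 bp) and Mrpl9 (3603 bp). Mtif3 (6236 bp) and Mtif2 (6118 bp) are initiation factors of mitochondrial translation, and Tomm5 (4222 bp) belongs to the outer membrane import pore.

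DNA repair and damage response genes had 12 sham-only regions of 40, 30% (interval 16.6 to 46.5%), and 11 of 25 among narrow regions. Msh6, of mismatch repair, was widest with 12069 bp. Fancc, of the Fanconi anaemia complex, had 6551 and 6503 bp, and Fance of the same complex had 3997 bp. Atm, the kinase that signals double-strand breaks, had 5162 bp at chr9:53446234-53451395. Neil2, a glycosylase of base excision repair, had 5096 bp, and Ercc4, a nuclease of nucleotide excision repair, had 3519 bp. Blm, a helicase of recombination, had 3970 bp, and Mgmt, which reverses alkylated guanine, had 3862 bp. Trp53cor1 (7259 bp), Ccng1 (4893 bp) and Ercc6l2 (4255 bp) completed the family. By the deposited annotation, 36 of 182 regions of the term cellular response to DNA damage stimulus were sham-only (19.8%), and 33 of 112 among narrow regions.

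The 5 sham-only regions of 16 in ribosome biogenesis and RNA polymerase were Bop1 (6850 bp), Exosc7 (5559 bp), Polr2m (5134 bp), Nop2 (3971 bp) and Wdr75 (3710 bp). Among narrow regions they were 5 of 13. Bop1, Nop2 and Wdr75 act in the nucleolus and Exosc7 in the RNA exosome. The deposited pathway Ribosome biogenesis in eukaryotes, however, had 3 of 22 (13.6%). Among narrow regions it had 2 of 18 (11.1%), below the 19.7% of all narrow regions. Proteasome genes had 5 of 20, and 5 of 17 among narrow regions, namely Psmd4 (7490 bp), Psmg1 (5855 bp), Psmb2 (4565 bp), Psmb8 (3399 bp) and Psma1 (3282 bp). Psmb8 is an immunoproteasome subunit and Psmg1 an assembly chaperone. The deposited pathway Proteasome had 4 of 20, and 4 of 18 among narrow regions (22.2%), near the share of all narrow regions. Cytosolic ribosomal proteins had 3 of 16, and 3 of 12 among narrow regions, Rpl23 (5444 bp), Rpl11 (3889 bp) and Rps15a (3721 bp). Translation factors and aminoacyl-tRNA synthetases had 7 of 49 (14.3%), and 7 of 35 among narrow regions, near the shares of all sham promoter regions. They included the synthetase genes Aars2 (6966 bp), Yars2 (4993 bp) and Kars (4323 bp). The deposited term translation, with 18 of 77 (23.4%), also holds mitochondrial ribosome genes such as Mrps12. The term mitochondrion held 96 sham-only regions of 766, 12.5%, near the share of all sham promoter regions.

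Zinc finger genes supplied 21 sham-only regions of 112, 18.8% (interval 12.0 to 27.2%), and 19 of 78 among narrow regions. Zc3h18 (10984 bp), Zfp532 (8895 bp) and Zfp691 (8454 bp) were the widest. Nuclear receptors had 4 of 25, and 4 of 9 among narrow regions: the germ cell factor Nr6a1 (7954 bp), the oestrogen-related receptor Esrrg (5390 bp), Nr4a2 (5259 bp) and Nr2c2 (3537 bp). The bZIP factors had 1 of 33, Atf2 (3681 bp), and 1 of 8 among narrow regions. Immediate early genes had 2 of 18, Egr2 (7570 bp) and Nr4a2, and 2 of 7 among narrow regions. Chromatin regulators had 15 of 137, and 15 of 76 among narrow regions, with Cbx7, of Polycomb complexes, at 8004 bp and Kdm1a, a histone demethylase, at 4577 bp.

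Ion channels had 8 sham-only regions of 35, 22.9% (interval 10.4 to 40.1%), and these were wide, with a median of 9891 bp. Among narrow regions they had 3 of 13 (23.1%), near the 19.7% of all narrow regions. That comparison covers only 3 of the 8 regions and does not speak to the wide ones. Beside Cacna1g the 8 regions included Chrna4 (11832 bp), a nicotinic acetylcholine receptor, and Scn2b (9993 bp), a sodium channel subunit. The mechanosensitive channel gene Piezo1 had regions of 9789 and 5632 bp, and the water channel gene Aqp3 had 5809 bp. G protein-coupled receptors had 8 of 47, and 5 of 19 among narrow regions, with Adgrl1, the orphan receptor Mrgpre (12443 bp) and Crhr2 (9865 and 5720 bp), a receptor for urocortins. Cytokine, chemokine and Toll-like receptor genes had 10 of 63, and 9 of 31 among narrow regions. These included Nlrx1 (10316 bp), Il27ra (8336 bp), Tlr2 (7924 bp), Tlr3 (6553 bp), Ccl9 (5932 bp) and Traf3 (5570 bp). Kinases of the MAP kinase, AKT, PKC, CAMK and AMPK families had 12 of 105, and 11 of 55 among narrow regions, near the shares of all.

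**Figure D2:**
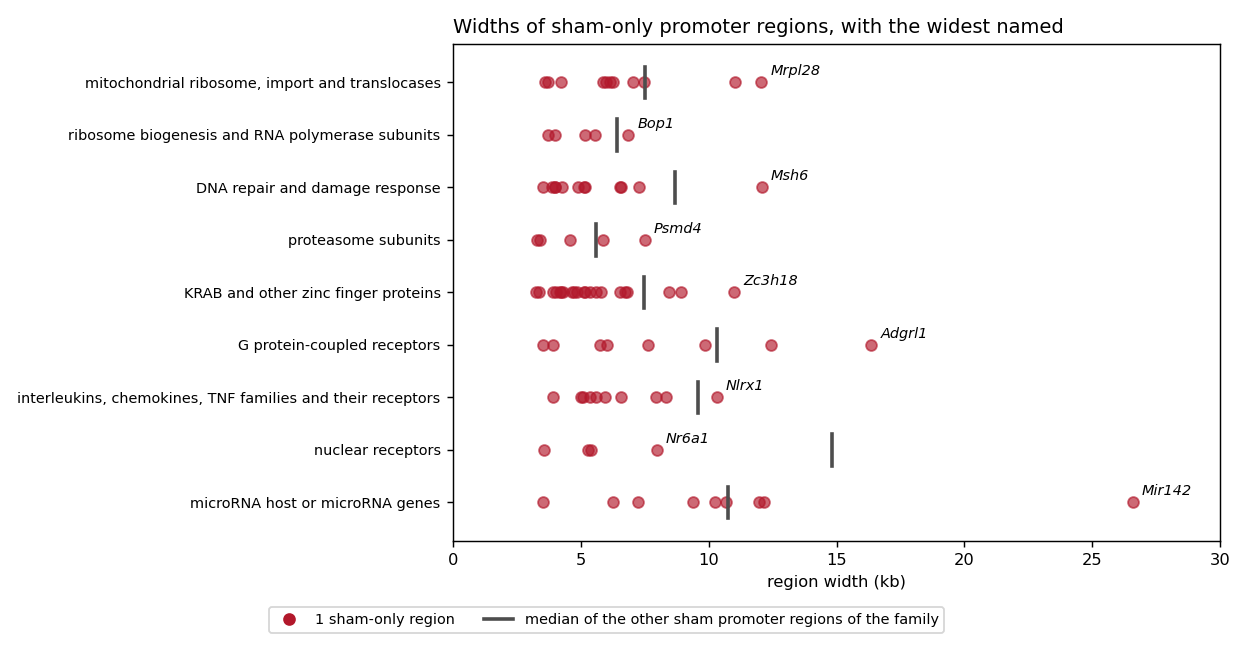
Width (x axis, kb) of each sham-only promoter region in 9 gene families, 1 point per region, with the widest gene named; the grey bar is the median width of the other sham promoter regions of that family. Most points in each row lie left of the bar, and the nuclear receptor points all do, with Nr6a1 at 7954 bp the widest there.

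Several groups of liver genes had no sham-only region. None of 15 promoter regions of hepatocyte transcription factors was sham-only, none of 16 of the urea cycle and amino acid breakdown, none of 14 of bile acid synthesis and transport, and none of 13 of IL-6, STAT3 and the acute phase. These were wide as a rule, with medians of 22678, 21722, 13775 and 12168 bp. Only 1, 1, 1 and 3 of them were narrower than the sham median, and wide sham regions of any gene were seldom sham-only. The part of width in these counts of 0 was not tested. Counts of 0 in lists of this size allow shares of up to 21.8, 20.6, 23.2 and 24.7% by the exact interval. Complement, coagulation, serpin and apolipoprotein genes had 1 of 51, Serpinb6b (12929 bp), and 0 of 16 among narrow regions. The deposited pathway Complement and coagulation cascades had 0 of 30, and Glycolysis and gluconeogenesis 0 of 30. By symbol, however, the list of glycolysis, gluconeogenesis and glycogen had 1 of 17, and 1 of 5 among narrow regions. Sugar and glycogen enzymes had 2 of 28, and 2 of 13 among narrow regions. The deposited term cellular response to insulin stimulus had 0 of 47 and liver development 1 of 42, Sod2. Fatty acid, triglyceride and cholesterol synthesis had 3 of 34 (8.82%), and 1 of 7 among narrow regions. These were the sterol genes Fdft1 (11164 bp) and Idi1 (3995 bp) and the desaturase gene Scd1 (9357 bp). The circadian clock list had 1 of 11, Per3 (8403 bp). Fatty acid oxidation and ketogenesis had 1 of 13, the mitochondrial carnitine carrier gene Slc25a20 (3681 bp). Wnt pathway feedback had 1 of 9, Axin1 (4222 bp), a scaffold of the beta-catenin destruction complex. The clock, oxidation and Wnt lists each had 1 of 5 among narrow regions. All these shares over all widths were below the 11.9% of all sham promoter regions.

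**Figure D3:**
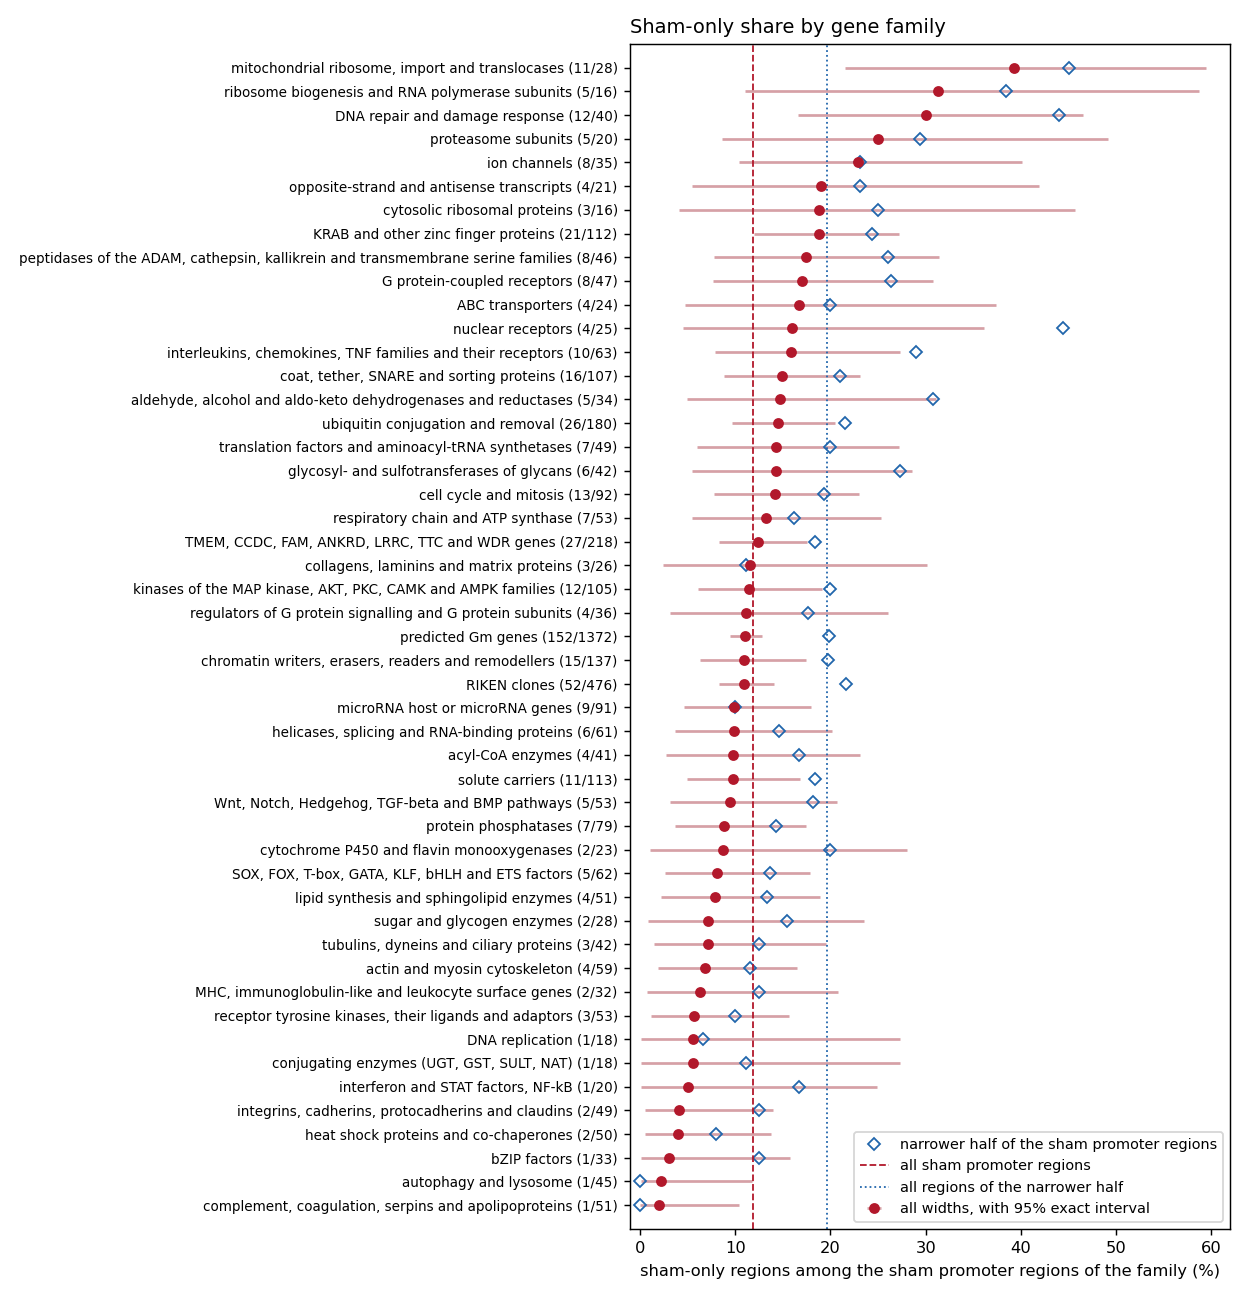
Percent of sham promoter regions that are sham-only (x axis) for gene families with at least 15 sham promoter regions, 1 family not reported here left out, sham-only and total counts in brackets; filled circles with 95% exact intervals (counting error only) are all widths, open diamonds are regions narrower than the sham median, and the lines are the same shares over all families. The mitochondrial ribosome family (11 of 28) stands at the top, followed by ribosome biogenesis (5 of 16) and DNA repair (12 of 40), and complement, coagulation, serpin and apolipoprotein genes at the bottom.

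The start sequences of the genes of sham-only regions were compared with those of other sham promoter genes for CpG content. Of 922 genes, 712 had an entry in the RefSeq table and 563 had exactly 1 start, which were used. Of these 64.7% had a CpG-rich start (observed over expected ratio of at least 0.6; interval 60.5 to 68.6%), against 66.0% of 3766 genes of other sham promoter regions and 35.7% of all 22862 genes with 1 start. Within the width classes, CpG-rich starts made up 76.1% of sham-only regions and 77.5% of the others up to 5512 bp. At 5514 to 7320 bp the shares were 57.7% and 69.6%, and at 7324 to 9985 bp 48.5% and 65.6%. At 9990 to 15052 bp, with 52 sham-only regions, they were 46.2% and 61.0%. These differences carry no test, since regions of 1 list are not replicates. The part of the mix of gene types in them was not tested. The widest class held only 5 sham-only regions with a usable start.

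**Figure D4:**
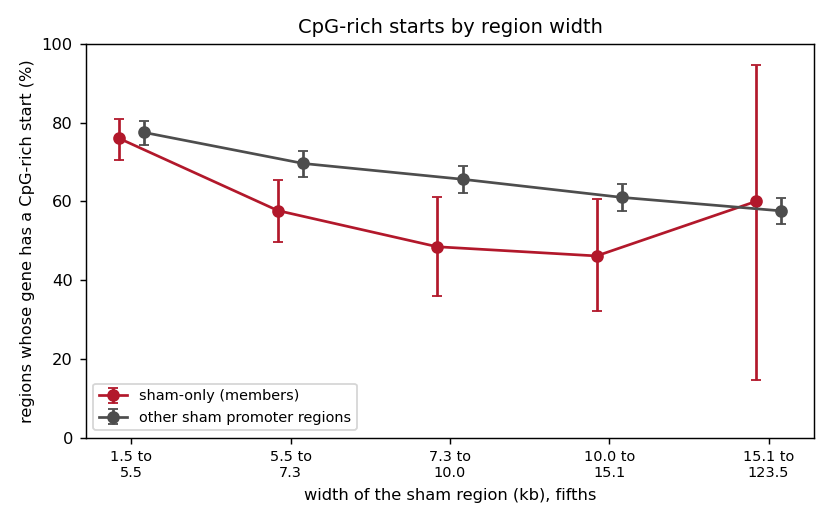
Percent of regions whose gene has a CpG-rich RefSeq start (y axis) by width class of the sham region (x axis, kb), for sham-only and other sham promoter regions, with 95% exact intervals that cover counting error only. Sham-only points lie below the others in the classes between 5514 and 15052 bp, and stand at 76.1% against 77.5% in the narrowest.

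Motifs were searched on both strands in the same 300 bases. TATAAA stood in 7.82% of the sham-only genes, 8.20% of the other sham promoter genes and 14.8% of all genes. CCAAT stood in 37.1, 37.8 and 38.2%, and GGGCGG in 58.6, 61.6 and 35.2%. The E-box CACGTG stood in 8.70, 9.85 and 7.12%. The cyclic AMP element TGACGTCA and the AP-1 motif TGANTCA stood in 2.49 and 4.80% of sham-only genes, against 2.81 and 6.43% of other sham promoter genes and 1.85 and 7.98% of all genes. The NRF1 motif was found in 16 of the 563 sham-only genes (2.84%, interval 1.63 to 4.57%), against 1.70% and 0.949%. The E2F motif TTTCGCGC was found in 6 (1.07%), against 0.345% and 0.328%, and TTTGGCGC in 7 (1.24%), against 0.823% and 0.503%. The ETS motif ACCGGAAGT was found in 11 (1.95%), against 2.04% and 1.10%, and the YY1 motif in 7 (1.24%), against 1.54% and 0.770%. Overlaps of a motif with another were not removed.

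The distance from a sham-only promoter region to the nearest PHx12h region of any class was 32 bp at the least and 3980197 bp at the most, with a median of 31118 bp (quartiles 9829 and 71447 bp). Of the 932, 29 were under 1 kb away, 237 (25.4%) under 10 kb and 763 (81.9%) under 100 kb. The nearest were Sec23ip, a factor of the early secretory pathway, at 32 bp, Plbd2, of the lysosome, at 38 bp, Tcf3, a bHLH factor, at 80 bp, Ap2b1, of the AP2 clathrin adaptor, at 95 bp and Per3 at 129 bp. The farthest were Manea, a Golgi mannosidase, at 3980197 bp, Gm5524 at 2977212 bp, Gm46848 at 2534076 bp, Chordc1 at 2193307 bp and Kdm4c, a histone demethylase, at 2043602 bp. Tasp1 (1781958 bp), Arl14ep (1570026 bp), Arglu1 (1282205 bp), Bod1l (1135327 bp) and Mtrf1l (1077105 bp) followed. Just outside the rule, LOC118568354 shared 8 bp with a PHx12h region, Chn1os3 91 bp, Gm28913 98 bp, Gssos2 239 bp and Gm31901 292 bp.

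A gene with a sham-only region could still have a PHx12h promoter region elsewhere. This held for 68 of the 932 regions (7.30%). At Rgs12 the sham-only region of 21131 bp and the PHx12h promoter region of 15264 bp were assigned to start sites 25138 bp apart. At Prkag2 the sham-only region had 18482 bp and the PHx12h one 23999 bp, 63886 bp apart by start site. Acot7 had 16833 bp and 14882 bp, 21744 bp apart, and Prlr, the prolactin receptor gene, 12451 bp and 10929 bp, 27076 bp apart. Ctcf, Foxp1 and Tcf3 were further cases, so the sham-only list holds alternative starts of genes that also had a marked promoter in the PHx12h list.

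The peak numbers in the lists bear on what absence from the PHx12h list means. Each listed region names numbered peaks of both libraries of its group, and the peak numbers run in genome order, so numbers missing between neighbouring regions were read as peaks that were called but not listed. The separate peak calls of the libraries were not analysed here, so this reading was not checked, and the values that follow rest on it. The highest peak number was 12096 in PHx12h library 1 and 14957 in PHx12h library 2, against 17405 and 17476 in the sham libraries. By this reading both PHx12h libraries had fewer called peaks than either sham library. The part of this in absence from the PHx12h list was not tested. Of 927 sham-only regions flanked on both sides, PHx12h library 2 had such an unlisted peak in the same stretch for 693 (74.8%) and library 1 for 299 (32.3%). For 494 (53.3%) only library 2 had one, and for 134 (14.5%) neither library had one. Trp73, Prkag2 and Cilp2 were among those with none. In the other direction, 1334 PHx12h-only promoter regions were flanked on both sides by sham regions. Sham library 1 had an unlisted peak in the same stretch for 69.2% of these and sham library 2 for 77.5%, and neither had one for 5.40%. Over stretches of 50 to 200 kb, PHx12h library 2 had unlisted peaks in 68.5% of stretches that held a sham-only promoter region. It had them in 26.3% of stretches with no sham-only region. PHx12h library 1 had them in 28.4% and 16.3%. In stretches under 50 kb these shares were 53.8% and 6.63% for library 2 and 15.4% and 2.79% for library 1. The classes do not match length fully: under 50 kb the median stretch was 28614 bp with a sham-only promoter region and 12507 bp without, and at 50 to 200 kb 108295 bp and 89116 bp. Longer stretches more often held an unlisted peak in both sets. The position of an unlisted peak within a stretch is not known. None of the 11 mitochondrial ribosome and import regions and 1 of the 12 DNA repair regions lay in a stretch without an unlisted peak.

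**Figure D5:**
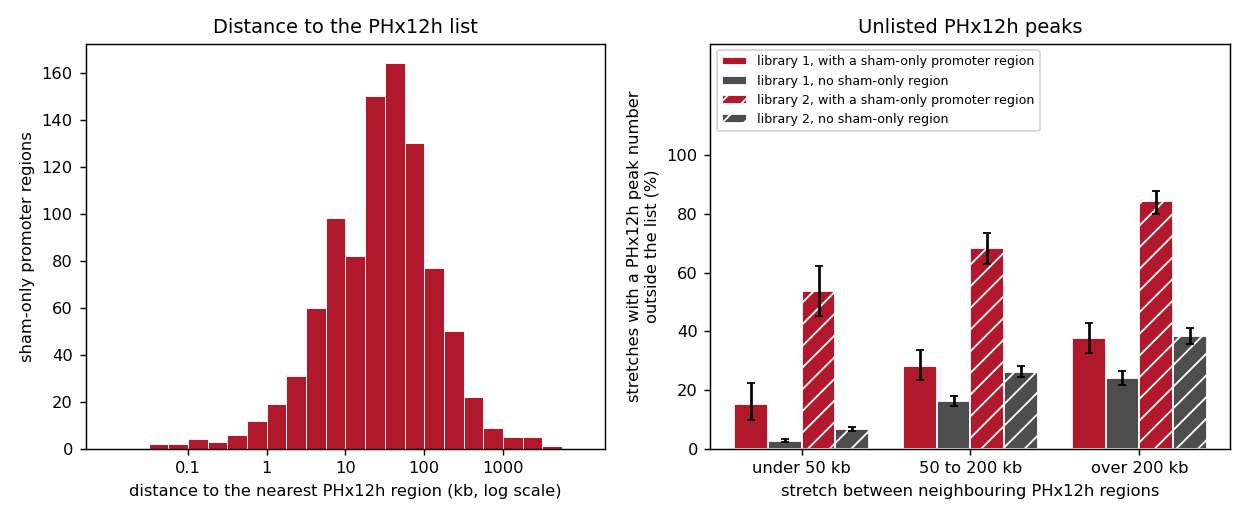
Left, number of sham-only promoter regions (y axis) by distance to the nearest PHx12h region (x axis, kb, log scale). Right, percent of stretches between neighbouring PHx12h regions in which library 1 or library 2 has a peak number outside the list, for stretches with a sham-only promoter region and with no sham-only region, with 95% exact intervals that cover counting error only. In each length class the bars with a sham-only promoter region are higher, for library 2 68.5% against 26.3% at 50 to 200 kb.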

How the data were processed

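H3K27ac CUT&Tag libraries were made from mouse liver, 2 per group, with a transposase kit and paired-end sequencing, per the labels' protocols. Per the submitters' processing notes, the build was GRCm39 (mm39) and the tools included SEACR, Bowtie2, DiffBind and ChIPseeker, with neither role, order nor version stated. The authors deposited 1 annotated region list per group, whose values used here are positions and widths in bp, peak numbers, assigned genes and annotation terms. No signal, count or p-value was used, and the depth per library is not given in the sources used here.

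The members and gene lists were chosen with earlier results of these data known. Some family symbols that matched only by their letters were removed after values were seen, from members and others alike. Others stayed in the counts, such as Sec14l5 among the coat proteins and Cdc37 among the cell cycle genes. Overlap meant at least 1 shared base, and the count was checked with bedtools 2.31.1 and on simulated intervals. Tables were made with Python 3.11.15, pandas 2.3.3, numpy 2.4.6 and scipy 1.17.1. Intervals are 95% Clopper-Pearson and cover counting error only. No test was made, since each group has 1 merged list. Named genes were the 15 widest and 5 narrowest members, the 5 nearest to and 10 farthest from a PHx12h region, the 5 other regions sharing fewest bases, up to 6 members by width per family (all where there were no more than 10), and the runs of neighbours; a few more were named after their values were seen, and 1 gene and 1 family that the rule takes are not reported here. RefSeq promoters and microRNAs (GRCm38.p6) were matched by symbol, and no coordinate was converted. Shares among narrow regions, shares by setting and the stretches without a sham-only region were alternatives added after the data were seen.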

Additional observations from a re-analysis of the deposited data

How the results depend on the processing

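Under each of the 7 planned region settings the median width of the sham-only regions was below that of the other sham promoter regions. The protein-coding share, 76.9% of sham-only regions and 73.6% of the others, turned its direction under 2 of them, the reciprocal overlap and the setting with no unlisted PHx12h peak. A gap of at least 1 kb and the class within 1 kb moved none of the values. A gap of at least 10 kb left 695 regions, a share of 8.84%, and a median distance of 46559 bp. Regions sharing less than a reciprocal overlap of 50% numbered 4061, 51.6% of sham promoter regions, with median widths of 7381 and 10048 bp for these and the others, 73.1 and 74.9% protein-coding, and a median distance of 0 bp, since most of them share bases with the PHx12h list. A start site inside the region gave 80.4 and 75.2% protein-coding. Regions of at least 5 kb in both lists gave 614 members, 9.11%, medians of 6730 and 9927 bp, a median distance of 26996 bp, and 72.5% protein-coding among the others. Requiring no unlisted PHx12h peak in the stretch left 134 members (1.7%), 72.4% of them protein-coding against 74% of the others, with a median distance of 15404 bp, and the others had a median width of 8566 bp. A CpG limit of 0.75 gave 47.2 and 49% CpG-rich starts. Where no construction of the setting shows it, the cause was not tested. No paired analysis was possible because each group has 1 merged list, and leaving out a library could not be run for the same reason. Depth and signal strength are unknown, so a missing region is not a measured loss of the mark.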

Other observations

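Endosomal and coat protein genes had 16 sham-only regions of 107, and 13 of 62 among narrow regions. Both counts were near the shares of all sham promoter regions. Chmp1a (12487 bp), Vps25 (9566 bp) and Sec23ip (8479 bp) were among the widest. So was Sec14l5 (10417 bp), whose symbol matched this family only by its letters. Autophagy and lysosome genes had 1 of 45 (2.22%), Mcoln1 (11198 bp), a lysosomal cation channel, and 0 of 23 among narrow regions. Ubiquitin genes had 26 of 180 (14.4%), and 23 of 107 among narrow regions, near the shares of all sham promoter regions. Nedd4 (9218 bp), a ubiquitin ligase, and the Cullin adaptors Klhl6 (8805 bp) and Fbxo46 (8677 bp) were the widest. Cell cycle genes had 13 of 92 (14.1%), and 11 of 57 among narrow regions, also near those shares. The chaperone Cdc37 (11704 bp), the centrosomal Cep85 (10475 bp) and the mitotic kinase Nek2 (7507 bp) were the widest, and E2f1 had 6312 bp. Heat shock proteins and co-chaperones had 2 of 50 (4%), Bag5 (7031 bp) and Cct4 (3915 bp), and 2 of 25 among narrow regions.

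Long non-coding RNA genes had 155 sham-only regions of 1567, 9.89% (interval 8.46 to 11.5%), and 128 of 676 among regions narrower than the sham median. Predicted Gm genes had 152 of 1372 (11.1%), and 120 of 606 among narrow regions. RIKEN clones had 52 of 476 (10.9%), and 47 of 217 among narrow regions. Both were near the shares of all sham promoter regions.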
